A study of Homo sapiens with 6 samples.

Results

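The 39 genes described here encode glycolytic enzymes and the transcripts known to respond to the hypoxia-inducible factors (HIFs), chosen by gene symbol from the 59608 genes of a count table. They comprised 18 glycolytic enzymes and 21 HIF targets and regulators that are not enzymes of glycolysis. RNA was sequenced from HepG2 cells, an established human liver cancer line that grows as hepatocyte-like epithelium. In all 6 libraries endogenous VEZF1, a zinc-finger transcription factor, had been silenced with a lentivirus-encoded sgRNA. Cells of 3 libraries then re-expressed wild-type VEZF1 (VEZF1WT). Cells of the other 3 re-expressed VEZF12A, a form in which serines reported to carry O-GlcNAc were changed to alanine. The comparison asked which transcripts differ between the factor with and without these residues. The paper reports a shorter half-life of VEZF12A in another liver cancer line, so the amount of VEZF1 protein may also differ. Protein was not measured here. Every library came from 1 cell line and re-expressed a form of VEZF1, and none was labelled as hypoxic. The data therefore hold neither a level without re-expression nor a hypoxic sample, and no library kept unsilenced VEZF1.

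Glycolysis splits glucose into pyruvate and yields ATP without oxygen, and lactate dehydrogenase then regenerates the NAD+ that the pathway consumes. HIF1A and EPAS1 (HIF-2α) are the oxygen-regulated subunits of the HIF factors. In oxygenated cells the EGLN prolyl hydroxylases mark them for destruction through VHL, so the HIF subunits are controlled largely at the protein level. When oxygen falls they pair with ARNT, bind the core motif ACGTG or GCGTG, and induce most glycolytic enzymes along with genes of angiogenesis, pH control and collagen processing. Liver cancers are known for high glycolytic rates and for replacing liver enzyme forms with those of proliferating tissue.

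The HIF core motif was looked for in the 250 bases before the RefSeq start site of each gene (GRCh38.p14, first listed start), as ACGTG and GCGTG on both strands. A promoter was matched for 37 of the 39 genes, all but VEGFA and NDRG1. ACGTG occurred in 15 and GCGTG in 13, and 25 of the 37 (12 of 18 glycolytic enzymes and 13 of 19 HIF targets and regulators) held at least 1 of them. Over the promoters of 27305 genes, 18.7% held ACGTG, 31.9% held GCGTG and 43.1% held either. The palindrome CACGTG contains ACGTG on both strands and is also the E-box read by other factors, so these matches are counted on each strand. A match is a string of letters and was not tested as a binding site. The 4 promoters printed here, PGK1 and LDHA of the enzymes and CA9 and P4HA1 of the HIF targets, show how the motif sits in both groups. They are written 5′ to 3′ on the strand of the gene with the matches in capitals. PGK1 lies at chrX:78103998-78104247 (plus strand), LDHA at chr11:18394313-18394562 (plus), CA9 at chr9:35673678-35673927 (plus) and P4HA1 at chr10:73096867-73097116 (minus).
PGK1: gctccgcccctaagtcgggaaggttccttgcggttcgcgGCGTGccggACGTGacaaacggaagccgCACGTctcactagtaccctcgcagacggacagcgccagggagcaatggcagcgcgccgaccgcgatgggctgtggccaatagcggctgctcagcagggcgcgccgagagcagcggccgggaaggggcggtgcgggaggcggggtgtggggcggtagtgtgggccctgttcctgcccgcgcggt
LDHA: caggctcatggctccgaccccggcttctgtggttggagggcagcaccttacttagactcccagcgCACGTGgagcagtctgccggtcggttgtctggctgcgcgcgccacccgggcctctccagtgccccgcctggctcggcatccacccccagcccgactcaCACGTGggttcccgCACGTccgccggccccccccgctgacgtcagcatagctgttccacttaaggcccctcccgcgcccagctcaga
CA9: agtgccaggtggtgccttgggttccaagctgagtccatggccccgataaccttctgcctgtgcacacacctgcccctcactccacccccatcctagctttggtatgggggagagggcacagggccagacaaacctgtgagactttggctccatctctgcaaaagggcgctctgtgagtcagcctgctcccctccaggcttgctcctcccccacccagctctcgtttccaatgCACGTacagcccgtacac
P4HA1: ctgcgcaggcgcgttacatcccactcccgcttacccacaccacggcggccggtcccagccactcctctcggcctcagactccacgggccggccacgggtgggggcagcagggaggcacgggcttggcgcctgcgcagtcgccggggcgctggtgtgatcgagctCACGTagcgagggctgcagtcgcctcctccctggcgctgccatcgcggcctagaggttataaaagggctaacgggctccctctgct
LDHA held 5 matches to ACGTG counted over both strands, PGK1 held 2 to ACGTG and 1 to GCGTG, and the single match in CA9 began 18 bases before the start. PDK1, P4HA2 and EGLN3 had no match in their windows. Only the first listed start was searched. The counted genes P4HA2 and EGLN3 reach further upstream, to chr5:132295315 and chr14:34462774, and starts there were not searched.

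The VEZF1WT libraries held 47414775, 35272710 and 57199396 counts, and the VEZF12A libraries held 28756765, 39565464 and 33966492. VEZF1 itself, which is counted whether it is endogenous or re-expressed, stood at 59.3, 45.6 and 40.0 CPM (counts scaled to library size with TMM factors) in VEZF1WT and at 46.2, 48.6 and 38.9 CPM in VEZF12A. These ranges overlapped, so its count did not tell the groups apart and the groups are those of the labels. The line showed the transcripts of its label: 11 hepatocyte and HepG2 markers summed to between 20160 and 24630 CPM in each library. APOB was the largest part of this sum, which is not scaled to gene length. Replicate 3 of both groups stood apart in some of them: AFP, the fetal albumin, had 1928, 2043 and 3643 CPM in VEZF1WT and 1763, 2065 and 3482 CPM in VEZF12A, and the fibrinogen chain FGB had 460.1, 420.1 and 804.3 against 356.7, 435.1 and 734.6 CPM. Of the immune markers CD68 took nearly all of the summed 112.7 to 185.1 CPM, lowest in replicate 3 of both groups, while PTPRC had at most 4 counts in a library and CD3E had 2 counts in 1 library and none elsewhere. The summed endothelial markers, mostly PECAM1, stayed between 2.14 and 4.35 CPM. The summed fibroblast markers stayed between 0.842 and 1.89 CPM, with DCN at 2 counts in 1 library and none elsewhere. In bulk RNA, fewer cells expressing a gene and less of its RNA per cell cannot be told apart. The labels do not say whether the 3 libraries of a form came from separate cultures, so p-values measure the spread between these libraries.

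The glycolytic enzymes were expressed at very different levels in HepG2 cells. Levels between genes are compared as TPM, which scales counts to gene length and library size. The length is that given with the counts for the whole gene, 10680 bases for GPI and 2396 for GAPDH. It need not be that of the transcript expressed, so the order depends on it, as do the ratios of enzyme forms below. In CPM, ENO1 (1263 in VEZF1WT and 1277 in VEZF12A) stood above GAPDH (830.0 and 816.2). GAPDH, which oxidises glyceraldehyde 3-phosphate, was highest at a mean of 867 TPM over the 6 libraries. It was followed by ENO1 at 614.6 TPM, LDHA at 300.2, TPI1 at 276.9, PKM at 251.6 and ALDOA at 169.9 TPM. PGAM1 stood at 91.7 and PGK1 at 58.9 TPM, and the upper steps were lower, with PFKL at 16.1 and GPI at 12.5 TPM. The highest of the non-glycolytic genes were MIF, a secreted cytokine, at 183.4 TPM and HIF1A at 124.1 TPM. EPAS1 reached 49.0, BHLHE40 39.1 and P4HA1 32.3 TPM. At the other end lay PFKM, the muscle phosphofructokinase, at 0.606 TPM, CA12 at 0.227, EGLN3 at 0.194 and LDHB at 0.0992 TPM.

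**Figure D1:**
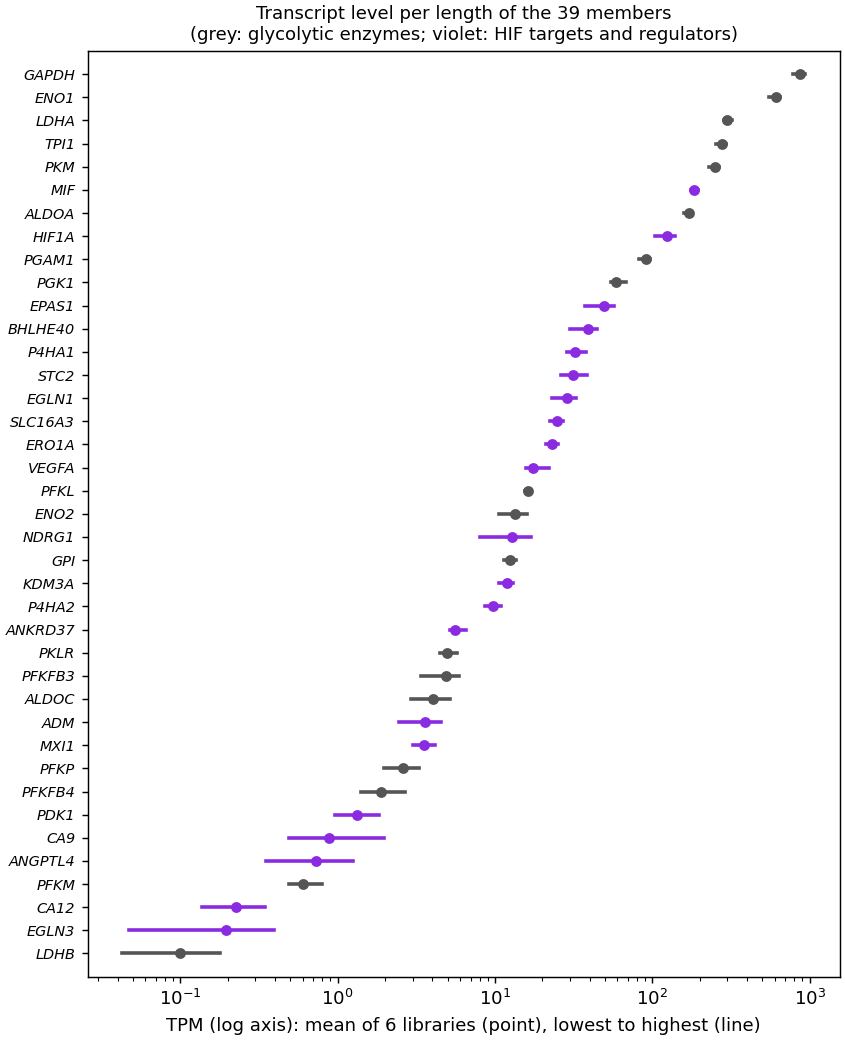
Mean TPM of each of the 39 genes over the 6 libraries (points, log axis) with the lowest and highest library (lines), glycolytic enzymes in grey and HIF targets and regulators in violet. GAPDH and ENO1 stood at the top, and LDHB and EGLN3 were at the bottom with wide ranges relative to their means.

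Where a step has several enzyme forms, the balance was read within each library as the ratio of counts per base of gene length, which does not depend on library size. LDHA, the lactate dehydrogenase subunit that HIF induces, was accompanied by almost no LDHB, the subunit of oxidative tissues. LDHB had 4, 6 and 4 counts in the VEZF1WT libraries and 6, 2 and 4 in the VEZF12A libraries. It thus made up 26 of 173721 counts of the LDHA and LDHB pair, 0.015%. The exact Clopper-Pearson 95% interval, 0.00978% to 0.0219%, covers counting error only and treats counts as independent. Every LDHB count was even, so counts may not be independent and the interval may be too narrow. LDHB was too low to be tested. LDHB shares exon positions with AC010197.2, which had 29 counts (111.5% of those of LDHB). PKM exceeded PKLR, the liver pyruvate kinase, 50.8-fold per length (geometric mean of 6 libraries). ENO1 exceeded the neuronal enolase ENO2 46.4-fold, although the muscle enolase ENO3, outside the 39 genes, was higher than ENO2 at 45.4 against 13.3 TPM, and ALDOA exceeded the brain aldolase ALDOC 42.8-fold. The balance was closer between PFKL and the platelet form PFKP (6.26-fold), between PFKFB3 and PFKFB4, which make the activator fructose 2,6-bisphosphate (2.61-fold), and between HIF1A and EPAS1 (2.55-fold). PFKFB1, a form outside the 39 genes that is named here after its value was seen, stood above both PFKFB3 and PFKFB4, at 10.4 against 4.87 and 1.88 TPM. In each of these 7 balances the difference between VEZF1WT and VEZF12A was smaller than the spread between libraries. Their two-sided exact permutation p-values ranged from 0.4 to 1.0, all 1.0 after Benjamini-Hochberg adjustment over 7, where 3 libraries against 3 cannot give less than 0.1. The log2 PKM over PKLR ratio, for example, was 5.72 ± 0.21 in VEZF1WT and 5.61 ± 0.19 in VEZF12A (SD, n = 3). The HIF1A over EPAS1 ratio was 1.36 ± 0.14 and 1.35 ± 0.13 on the same log2 scale.

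Between the forms of VEZF1, 38 of the 39 genes had enough counts to be compared, and none passed the threshold after adjustment. By the quasi-likelihood test of edgeR (Benjamini-Hochberg, 19111 genes), 0 of the 38 had an adjusted p-value under 0.05, as did 0.0% of all genes tested, and each of them had an adjusted p of 0.9996. DESeq2 called 3 genes of the table and limma voom called 0, and neither tool called any of the 38. At an unadjusted p under 0.05 there were 4, all lower in VEZF1WT (10.5%): PDK1, P4HA2, CA9 and EGLN3. Of all genes tested, 2.13% passed this level, 1.3% lower and 0.832% higher in VEZF1WT. All 4 were HIF targets and regulators (19.0% of the 21), and none of the 17 glycolytic enzymes tested was among them. Without replicate 2 of VEZF12A, 0 of the 38 had an unadjusted p under 0.05, beside 1.78% of all genes tested. The log2 fold changes of VEZF1WT over VEZF12A were then −0.39 for PDK1 and −0.17 for P4HA2, from −0.51 and −0.20 with all libraries. Those of CA9 and EGLN3 were −0.53 and −0.70, from −1.11 and −1.14. Without replicate 1 of VEZF12A the count was 10 (2.38% of all genes), and without replicate 3 of VEZF12A it was 6 (4.89%). It was 2 without replicate 2 of VEZF1WT (2.41%) and without replicate 3 of VEZF1WT (2.27%).

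PDK1 phosphorylates and shuts the pyruvate dehydrogenase complex, which keeps pyruvate out of the mitochondria. Its gene lies at chr2:172555373-172608669 on the plus strand. PDK1 was at 7.75, 5.89 and 5.84 CPM in VEZF1WT and at 7.27, 10.7 and 9.77 CPM in VEZF12A. Replicates 2 and 3 of VEZF12A stood above every VEZF1WT library, and replicate 1 lay inside the VEZF1WT range, so the groups overlapped. As log2 of VEZF1WT over VEZF12A, the direction used throughout, the difference was −0.51 (SE 0.16), with an unadjusted edgeR p of 0.00943 and an exact permutation p of 0.2. Without replicate 2 of VEZF12A it was −0.39 with an edgeR p of 0.0547. PDK1 shares exon positions with AC078883.1, which held 262.5% of its counts and had a log2 fold change of 0.055. The strand setting of the counting is not given in the sources used here, and reads of such pairs cannot then be told apart.

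P4HA2 and P4HA1 are catalytic subunits of the prolyl 4-hydroxylase that stabilises collagen. P4HA2 (chr5:132191838-132295315, minus strand) had 28.99, 31.66 and 31.0 CPM in VEZF1WT and 31.74, 36.4 and 36.8 CPM in VEZF12A. All 3 VEZF1WT libraries lay below all 3 of VEZF12A, although replicate 2 of VEZF1WT and replicate 1 of VEZF12A were nearly equal. The log2 fold change was −0.20 (SE 0.075) with an unadjusted edgeR p of 0.0257 and an exact permutation p of 0.1, the smallest possible. Without replicate 1 of VEZF1WT the log2 fold change was −0.16 and the edgeR p 0.0985, the highest on leaving out 1 library. P4HA2-AS1, which shares exon positions with P4HA2 and held 1.39% as many counts, had a log2 fold change of −1.08. P4HA1 followed the pattern of PDK1, with 34.6, 37.0 and 38.8 CPM in VEZF1WT against 34.4, 46.0 and 47.7 CPM in VEZF12A. Here replicate 1 of VEZF12A was the lowest of all 6 libraries and replicates 2 and 3 were the highest. Its log2 fold change was −0.22 with an unadjusted edgeR p of 0.0773, and it was −0.35 without replicate 1 of VEZF12A (edgeR p of 0.00115) and −0.13 without replicate 3 of VEZF12A.

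CA9 and EGLN3 are among the genes most strongly induced by hypoxia in many cell types, and both were near the limit of detection here. CA9, a carbonic anhydrase that acidifies the outside of hypoxic cells, lies at chr9:35673918-35681159 on the plus strand. It had 18, 14 and 18 raw counts in VEZF1WT and 10, 50 and 23 in VEZF12A, or 0.380, 0.393 and 0.319 against 0.343, 1.25 and 0.694 CPM. Replicates 2 and 3 of VEZF12A were again high, and replicate 1 lay within the VEZF1WT range. The log2 fold change was −1.11 (SE 0.44), with an unadjusted edgeR p of 0.0299 and an exact permutation p of 0.3, and without replicate 2 of VEZF12A it was −0.53 with an edgeR p of 0.258. ARHGEF39, whose exons overlap those of CA9 and which held 1602% of its counts, had a log2 fold change of −0.058. EGLN3, the HIF prolyl hydroxylase that HIF itself induces, lies at chr14:33924227-34462774 on the minus strand and shares exon positions with no other gene of the table. Its raw counts were 26, 14 and 8 in VEZF1WT and 16, 46 and 20 in VEZF12A. In CPM this was 0.549, 0.393 and 0.142 against 0.549, 1.15 and 0.603, so that replicate 1 of both groups had the same level and replicate 2 of VEZF12A stood apart. The log2 fold change was −1.14 (SE 0.49), with an unadjusted edgeR p of 0.0405 and an exact permutation p of 0.2. Without replicate 2 of VEZF12A it was −0.70 with an edgeR p of 0.236. When only genes whose exon-sharing neighbours hold at most 10% of their counts were considered, P4HA2 and EGLN3 were the 2 left of the 4.

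**Figure D2:**
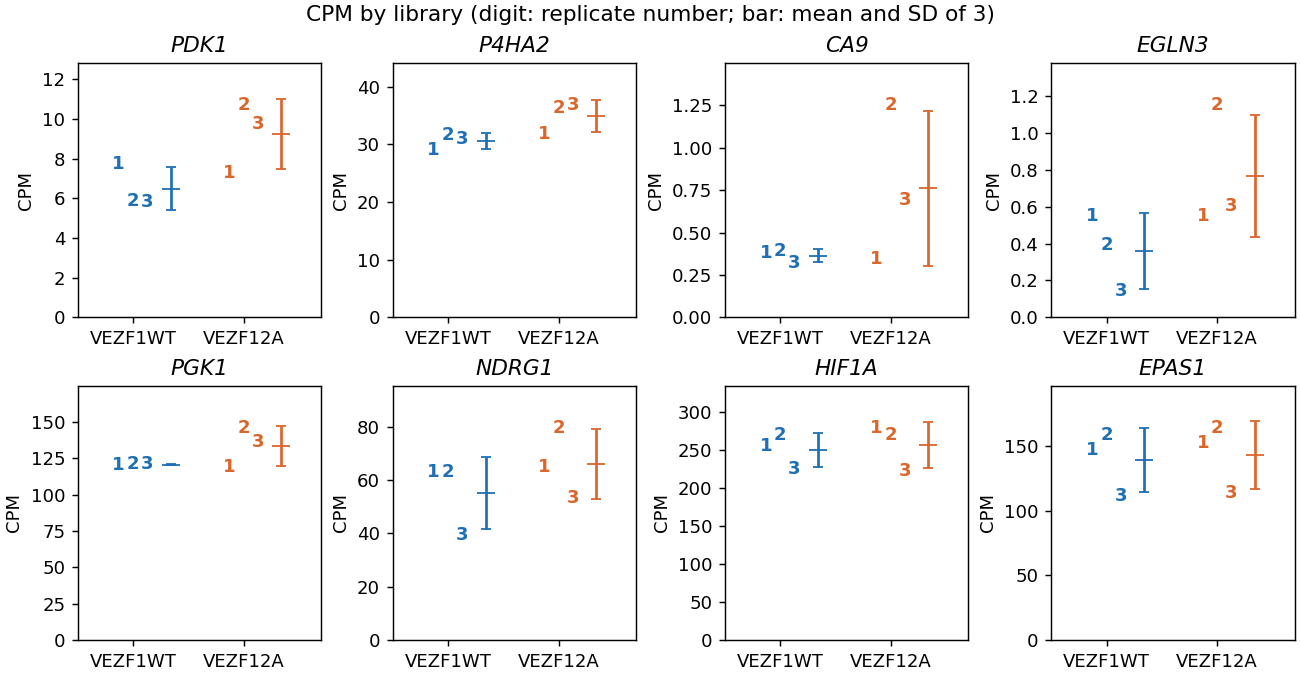
CPM of 8 genes in each library (digits give the replicate number, bars the mean and SD of 3 libraries), VEZF1WT in blue and VEZF12A in orange. In PDK1, CA9 and PGK1 replicates 2 and 3 of VEZF12A stood above the VEZF1WT libraries while replicate 1 did not, and in NDRG1, HIF1A and EPAS1 replicate 3 was the lowest of both groups.

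Differences among the glycolytic enzymes were small. Of the 17 tested, 15 had a log2 fold change below 0 and 2 above (GAPDH and PFKP), with a range of −0.34 to 0.11 and a median of −0.094, beside a median of 0.00 over all genes tested. Without replicate 2 of VEZF12A, 14 lay below 0 (beside 49.8% of all genes) and the median was −0.063. The median was −0.050 without replicate 3 of VEZF1WT and −0.057 without replicate 3 of VEZF12A. Log2 fold changes below 0 made up 94.7% of the 38 genes and 49.9% of all genes tested. The genes of a pathway share libraries, so a common shift in 1 library moves many of them at once.

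PGK1 and PGAM1, which catalyse successive steps of lower glycolysis, were among the enzymes with the smallest p. PGK1, the first ATP-yielding enzyme of the pathway, had 120.3, 120.8 and 121.0 CPM in VEZF1WT and 118.7, 145.8 and 136.3 CPM in VEZF12A. The VEZF1WT libraries were nearly identical, and the VEZF12A libraries lay on both sides of them. Its log2 fold change was −0.15 (SE 0.074), with an unadjusted edgeR p of 0.0732. It was −0.22 without replicate 1 of VEZF12A (edgeR p of 0.00638) and −0.079 without replicate 2 of VEZF12A. PGAM1, which moves the phosphate of phosphoglycerate, had 91.6, 90.9 and 85.6 CPM in VEZF1WT and 95.8, 92.6 and 97.7 CPM in VEZF12A. It was the only enzyme whose groups did not overlap, and with P4HA2 it was 1 of 2 such genes among the 38, both lower in VEZF1WT (5.26%, beside 7.36% of all genes tested in either direction and 3.86% in this one). Its log2 fold change was −0.094 with an unadjusted edgeR p of 0.127. LDHA had 697.1, 666.4 and 717.5 CPM in VEZF1WT and 693.7, 746.3 and 797.4 CPM in VEZF12A, where replicate 1 again lay inside the VEZF1WT range. Its log2 fold change was −0.10 (95% interval −0.24 to 0.036), and it was −0.15 without replicate 1 of VEZF12A (edgeR p of 0.0453) and −0.055 without replicate 3 of VEZF12A.

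For the most abundant enzymes the intervals were narrow. GAPDH was at 830.0 ± 36.6 CPM in VEZF1WT and 816.2 ± 39.2 CPM in VEZF12A (SD, n = 3), a log2 fold change of 0.024 with a 95% interval of −0.11 to 0.16. ENO1, the enolase of most tissues, was at 1263 ± 72.0 and 1277 ± 45.7 CPM, with a log2 fold change of −0.015 (−0.15 to 0.12). PKM, which makes pyruvate and the last ATP of the pathway, was at 842.5 ± 33.2 and 867.0 ± 11.1 CPM, with −0.041 (−0.16 to 0.076). In each of these 3 enzymes the libraries of the groups overlapped. ALDOA, which splits fructose 1,6-bisphosphate, had a log2 fold change of −0.057, TPI1, which interconverts the triose phosphates, −0.053, GPI, which isomerises glucose 6-phosphate, −0.066 and PFKL, the liver phosphofructokinase, −0.039. All 4 had 95% intervals within 0.21 of 0 on the log2 scale. With 1 library left out the range was −0.087 to −0.036 for ALDOA, −0.11 to −0.026 for TPI1 and −0.12 to −0.028 for GPI. It was −0.066 to −0.015 for PFKL and −0.066 to −0.010 for PKM. PFKFB3, which drives phosphofructokinase through fructose 2,6-bisphosphate, had a log2 fold change of −0.26 (95% interval −0.57 to 0.060), with an unadjusted edgeR p of 0.101. It stood at 12.3, 11.6 and 8.41 CPM in VEZF1WT and at 12.5, 14.1 and 11.8 CPM in VEZF12A, and replicate 3 of VEZF1WT was low. Without that library the log2 fold change was −0.10, and without replicate 1 of VEZF1WT it was −0.37 (edgeR p of 0.0424). Of the 38 genes, 26 had a 95% interval that stayed within 0.5 of 0, so for these a log2 difference over 0.5 lay outside the interval. Such an interval was found for 11973 of all 19111 genes tested. Some enzymes share exon positions with other counted genes, AC093512.2 and AC093512.1 together holding 107.3% of the counts of ALDOA and AC006064.4 26.7% of those of GAPDH. The 62 GAPDH pseudogenes in the table held 0.955% as many counts as GAPDH, and for TPI1 4 pseudogenes held 3.01%.

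**Figure D3:**
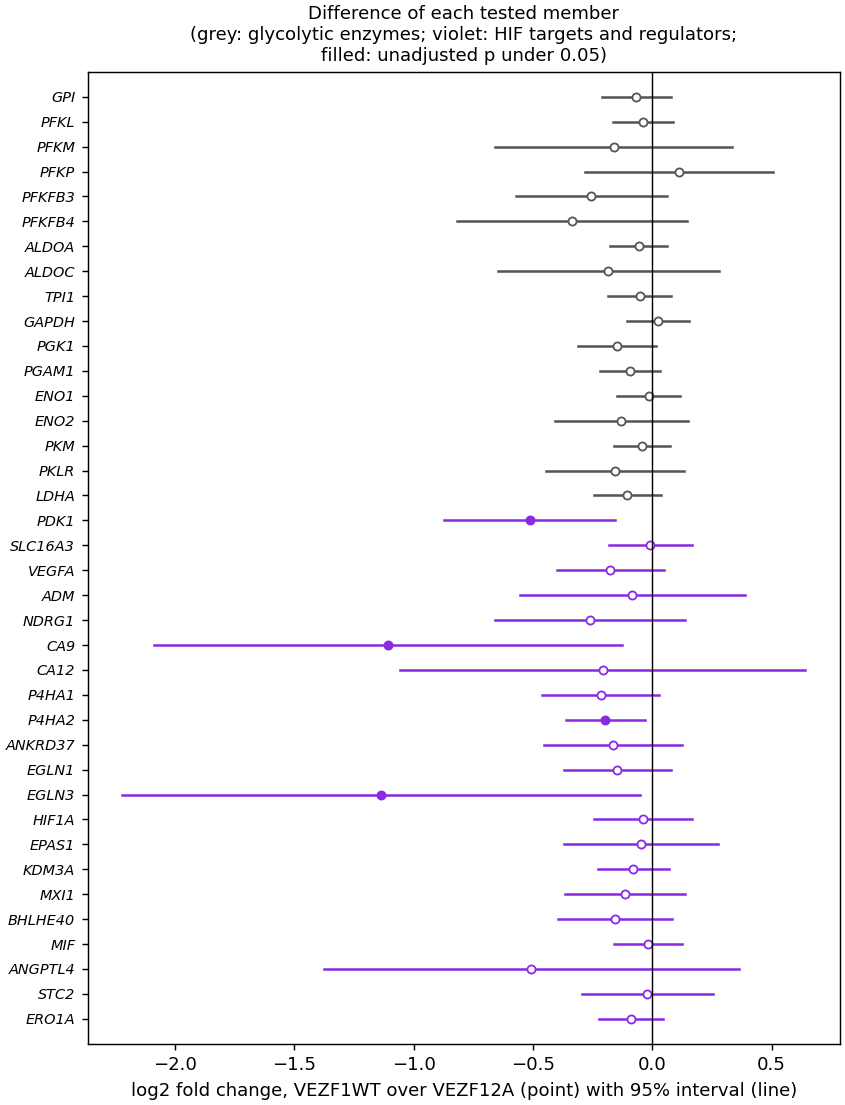
Log2 fold change of VEZF1WT over VEZF12A for the 38 genes tested (points) with 95% intervals (lines), glycolytic enzymes in grey and HIF targets and regulators in violet, filled where the unadjusted p was under 0.05. Of the points, 36 lie left of 0, most intervals cross 0, and the widest belong to EGLN3, CA9 and ANGPTL4, which had few counts.

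Transcripts of the HIF subunits themselves differed between the forms by less than the spread between libraries. HIF1A had 254.7, 269.4 and 225.0 CPM in VEZF1WT and 278.4, 268.9 and 221.9 CPM in VEZF12A. EPAS1 had 147.4, 158.5 and 111.4 CPM against 152.7, 164.1 and 113.9 CPM. In both genes replicate 3 was the lowest of each group, and the groups overlapped fully. The log2 fold change was −0.038 (95% interval −0.24 to 0.17) for HIF1A and −0.047 (−0.37 to 0.28) for EPAS1, and the sign of each turned on leaving out replicate 3 of VEZF1WT. The activity of HIF, which is set mostly by protein stability, was not measured.

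All 21 HIF targets and regulators had a log2 fold change below 0, from −1.14 to −0.008 with a median of −0.16. Without replicate 2 of VEZF12A 15 lay below 0 (beside 49.8% of all genes) and 6 above, and the median was −0.084. Without replicate 3 of VEZF1WT the median was −0.067, and 30 of the 38 genes of both groups lay below 0 (beside 50.3% of all genes). NDRG1, a stress-induced protein of the cytoplasm, showed both features of these libraries at once. It had 62.9, 63.1 and 39.5 CPM in VEZF1WT and 64.9, 79.5 and 53.3 CPM in VEZF12A. Replicate 3 was low in each group, replicate 2 of VEZF12A was the highest, and the groups overlapped. Each VEZF1WT library lay below the VEZF12A library of the same number. With the replicate number as a block the unadjusted edgeR p was 0.000719, but the labels do not say what the numbers mean. Without that block the log2 fold change was −0.26, with an unadjusted edgeR p of 0.176. On leaving out 1 library it ranged from −0.39 (without replicate 3 of VEZF12A, edgeR p of 0.0414) to −0.067 (without replicate 3 of VEZF1WT). It was −0.10 without replicate 2 of VEZF12A. ANGPTL4, an inhibitor of lipoprotein lipase, had 0.718, 0.730 and 0.355 CPM against 0.618, 1.22 and 0.633 CPM, with a log2 fold change of −0.51 and a 95% interval of −1.38 to 0.36. Without replicate 2 of VEZF12A it was −0.084, and without replicate 3 of VEZF1WT it was −0.21. BHLHE40, a transcriptional repressor of the clock and hypoxia systems, had a log2 fold change of −0.16, which ranged from −0.24 (without replicate 3 of VEZF12A, edgeR p of 0.0413) to −0.044 (without replicate 3 of VEZF1WT). It was −0.10 without replicate 2 of VEZF12A. MIF had a log2 fold change of −0.019. MIF shares exon positions with MIF-AS1, and its partners together held 148.6% of its counts.

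The other 10 HIF targets and regulators and the other 6 tested enzymes had unadjusted edgeR p-values of 0.111 or more, with log2 fold changes from −0.34 to 0.11. They are given by level. VEGFA, the main angiogenic growth factor, had a mean of 17.5 TPM. SLC16A3, which exports lactate, had 24.8 TPM, and STC2, a secreted glycoprotein, had 31.1. EGLN1, the main oxygen sensor of normoxic cells, had 28.7 TPM, and ERO1A, an oxidase of the endoplasmic reticulum, had 23.0. KDM3A, a histone demethylase, had 11.9 TPM, ANKRD37 had 5.60, the vasodilator peptide ADM had 3.57, the MYC antagonist MXI1 had 3.56, and the carbonic anhydrase CA12 had 0.227 TPM. Among the enzymes ENO2 had 13.3 TPM, PKLR 4.96, ALDOC 4.03, PFKP 2.62, PFKFB4 1.88 and PFKM 0.606 TPM.

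Across the 38 genes the same libraries were often the highest or the lowest. Replicate 2 of VEZF12A was the highest of the 6 libraries in 24 genes (63.2%), beside 16.5% of all genes tested. Replicate 3 of VEZF1WT was the lowest of the 6 in 21 genes (55.3%, beside 16.3% of all genes tested). In 17 genes (44.7%, beside 20.0% of all genes tested) replicate 3 was the lowest library of both groups. These 17 comprised 8 enzymes, among them GAPDH, ENO1 and PKM, and 9 HIF targets and regulators, among them HIF1A, EPAS1 and NDRG1. The same libraries were those with high AFP and FGB, whose part in these values was not tested. A further 16 genes, 7 enzymes and 9 HIF targets and regulators, had replicates 2 and 3 of VEZF12A both above every VEZF1WT library, as did 8.35% of all genes tested. They included PGK1, LDHA, PDK1, VEGFA, P4HA1 and CA9. These patterns were noticed in the values and are given without a test. The share of all counts taken by the 18 enzymes was 0.464%, 0.465% and 0.433% in VEZF1WT and 0.470%, 0.483% and 0.450% in VEZF12A. The 21 HIF targets and regulators took 0.112%, 0.115% and 0.0971% against 0.115%, 0.129% and 0.103%. In both sums replicate 2 of VEZF12A was the highest library and replicate 3 of VEZF1WT the lowest, and the groups overlapped.

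**Figure D4:**
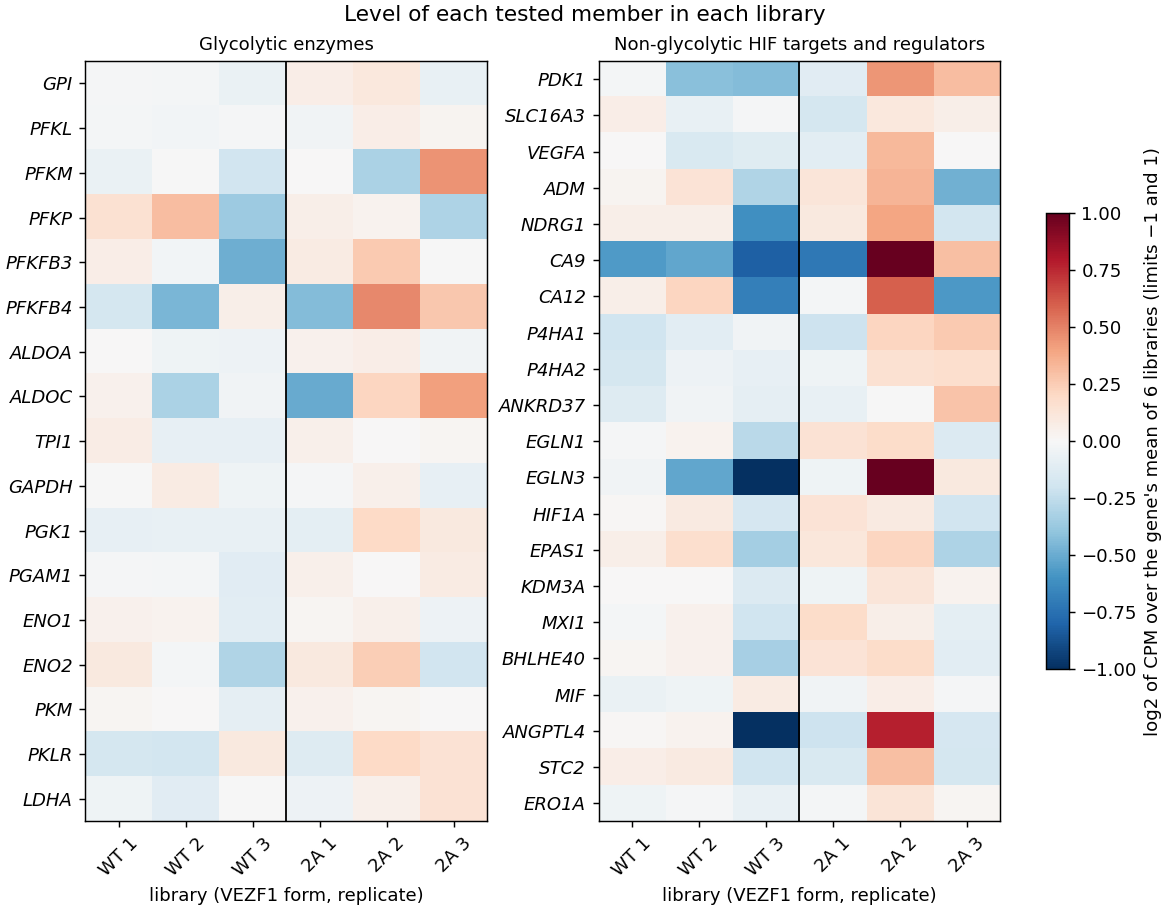
Level of each of the 38 genes tested in each library as log2 of CPM over the gene's mean of 6 libraries (colours, limits −1 and 1), with a line between the VEZF1WT and VEZF12A libraries. The column of VEZF12A replicate 2 is mostly red, that of VEZF1WT replicate 3 mostly blue, and CA9, EGLN3 and ANGPTL4 span the widest range.

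Genes of the same pathways outside the 39 were read from 4 lists that, like the 39, were chosen with earlier results of these data known, so their shares are not independent evidence. Of 27 other genes induced by hypoxia, all tested, 6 had an unadjusted p under 0.05, all lower in VEZF1WT (22.2%, beside 1.3% of all genes tested for this direction), and 22 lay below 0 with a median log2 fold change of −0.15. The 6 were LOX, which cross-links collagen (−1.17), PPFIA4, a liprin scaffold (−1.22), BNIP3L, a mitophagy receptor (−0.46), ANKZF1, a factor of ribosome quality control (−0.30), the glucose transporter SLC2A3 (−0.29) and the glycogen synthase GYS1 (−0.26). BNIP3L had 13.5, 12.5 and 11.5 CPM in VEZF1WT and 14.6, 18.9 and 17.9 CPM in VEZF12A, and LOX had 1.22, 0.730 and 1.28 CPM against 1.51, 2.95 and 2.90 CPM. In these 2 genes the groups did not overlap, nor did they in ANKZF1 and SLC2A3, which makes 4 of the 27, all lower in VEZF1WT (14.8%, beside 3.86% of all genes tested in this direction). Without replicate 2 of VEZF12A, 4 of the 27 had an unadjusted edgeR p under 0.05 (1.78% of all genes) and the median was −0.078. The count was 3 without replicate 3 of VEZF1WT (2.27% of all genes) and 11 without replicate 1 of VEZF12A (2.38%). The glucose transporter SLC2A1 (146.3 TPM) and the transferrin receptor TFRC (41.3 TPM) were among the highest levels of the list.

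The machinery around HIF and the genes that handle pyruvate and lactate were read in the same way. Of 12 tested genes of the HIF machinery, CITED2, which competes with HIF for its coactivators, was the only one with an unadjusted p under 0.05 (8.33%, beside 2.13% of all genes tested). CITED2 had 9.46, 9.94 and 10.1 CPM in VEZF1WT and 10.1, 14.5 and 12.5 CPM in VEZF12A, a log2 difference of −0.34 with an unadjusted edgeR p of 0.0233. The VHL partners ELOC and ELOB (41.7 and 36.7 TPM) and VHL (23.7 TPM) led the list by level, whose median log2 fold change was −0.031. The groups did not overlap in 3 of the 12 (25.0%), ARNT2, HIF1AN and ELOB, all lower in VEZF1WT, beside 3.86% of all genes tested. Of 14 tested genes of pyruvate and lactate handling, none had an unadjusted p under 0.05, and 11 lay above 0 with a median of 0.029. The groups did not overlap in 2 of them (14.3%), PDHA1 and PDHX, both higher in VEZF1WT, beside 3.5% of all genes tested. PDHB, a pyruvate dehydrogenase subunit, had 143.5 TPM, the mitochondrial pyruvate carrier MPC1 129.7 and the transporter chaperone BSG 122.5 TPM. Of 10 other glycolytic enzymes tested, HK2, the hexokinase of proliferating cells, was the only one with an unadjusted p under 0.05 (beside 2.13% of all genes tested) and the only one with separate groups (beside 7.36%). HK2 had 56.0, 52.9 and 59.2 CPM in VEZF1WT and 61.2, 71.6 and 73.0 CPM in VEZF12A. Its log2 fold change was −0.29 with an unadjusted edgeR p of 0.00362. The list had a median of 0.007, and HKDC1 (54.5 TPM), ENO3 (45.4 TPM) and HK2 (26.5 TPM) had its highest levels.

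Markers of proliferation were read beside these lists. Over 13 such genes the median level, as log2 over the mean of the 6 libraries, was 0.11, −0.20 and 0.10 in VEZF1WT and −0.090, −0.13 and 0.15 in VEZF12A. The glycolytic enzymes had −0.005, −0.024 and −0.071 in VEZF1WT and 0.021, 0.066 and 0.021 in VEZF12A on that scale. The HIF targets and regulators had 0.001, 0.005 and −0.20 against −0.040, 0.21 and −0.008. Replicate 2 of VEZF12A, high for the HIF list, was low for proliferation genes, and replicate 3 of VEZF1WT was the reverse. However, replicate 2 of VEZF1WT, the lowest for proliferation, was near 0 for the HIF list, and the part of growth in these values was not tested. Of the 13 genes only CCNE2, a cyclin of S-phase entry, passed the unadjusted level (7.69%, beside 2.13% of all genes tested), with a log2 fold change of 0.36 and an edgeR p of 0.0284.

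**Figure D5:**
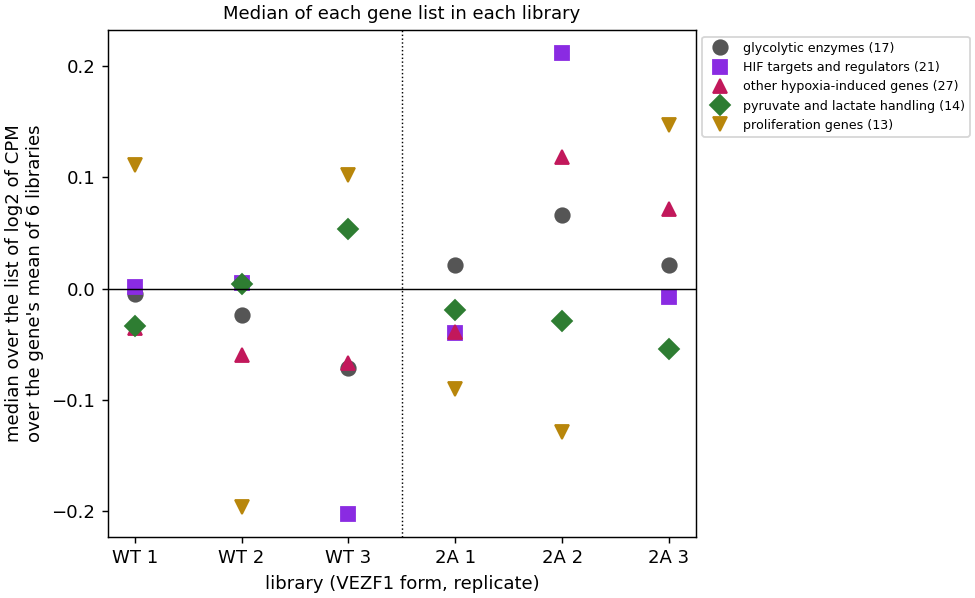
Median over each gene list of log2 CPM relative to the gene's mean of 6 libraries, by library. The HIF targets and regulators (squares) range from −0.20 in VEZF1WT replicate 3 to 0.21 in VEZF12A replicate 2, while the glycolytic enzymes (circles) stay between −0.071 and 0.066.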

How the data were processed

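The authors deposited 1 table of raw read counts per gene for 6 poly(A)-primed RNA-seq libraries of HepG2 cells, without normalization. The aligner, counter, annotation and strand setting are not given in the sources used here. The submitters' processing notes name GRCh38, and 21 of the 39 genes have exactly the positions of GENCODE release 29. A single broken entry over 5 of 59613 lines (ANK2) was left out. In a library, 65.7% to 67.5% of counts from 11 to 100 were even, so counts may not be independent, and tests used the spread between libraries.

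Fits were made with edgeR 4.0.16 (R 4.3.3): filterByExpr (minimum count 10, minimum total 15), TMM factors (0.977 to 1.014), glmQLFit and glmQLFTest with the group as covariate (two-sided, biological coefficient of variation 9.71%), and Benjamini-Hochberg adjustment over 19111 genes. TPM used the gene lengths of the table. Ratios of enzyme forms (0.5 added to each count) were compared by exact permutation. Alternatives used other scalings, no filter, DESeq2 1.42.0, limma 3.58.1 voom, a replicate block and each library left out. The fit was tested on simulated data. At an adjusted p under 0.05 it recovered 77.3% of simulated log2 changes of 1 and 98% of those of 2. Of its calls, 6.04% were false. Smaller changes were not simulated. Figures were drawn with matplotlib 3.10.9.

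The 39 genes and all lists were chosen with earlier results of these data known. Fold changes are given for genes with an unadjusted p under 0.05 or separate groups, for HIF1A and EPAS1, for the highest by TPM of the listed forms at each enzyme step (only forms among the 39 genes), and for the 5 non-glycolytic genes with the highest TPM and the 5 with the largest fold change. From other lists, genes with an unadjusted p under 0.05 and the 3 highest by TPM are named, except 1 gene that is not reported here. ARNT2, HIF1AN, PDHA1 and PDHX, named for separate groups, and PFKFB1, AFP and FGB were chosen after their values were seen. The partners of genes named are those sharing exon positions. Promoter sequences are from RefSeq.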

Additional observations from a re-analysis of the deposited data

How the results depend on the processing

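Of the 39 genes, 0 had an adjusted p under 0.05 in any alternative run. Over all genes this count moved from 0 to 16 without the filter on low counts, to 6 with the replicate block and to 3 with the DESeq2 test, and was 0 under the other scalings, limma voom and each library left out. The number of the 39 genes with an unadjusted p under 0.05 moved from 4 to 9 without the filter (2.31% of all genes) and to 12 with the replicate block (4.32% of all genes). The 12, all lower in VEZF1WT, were PFKFB3, PGK1, LDHA, PDK1, VEGFA, NDRG1, CA9, P4HA1, P4HA2, EGLN1, EGLN3 and BHLHE40. The number was 4 with DESeq2 (1.15% of all genes) and 3 with limma voom (2.26%). When only the 22 genes with little shared exon count were considered, an alternative chosen after seeing the data, it was 2. No share over all genes is given for that alternative, so nothing is read from its count. Leaving out 1 library gave from 0 to 10 of the 38, beside 1.51% to 4.89% of all genes. Among the 27 other hypoxia-induced genes the number moved from 6 to 11 without the filter (2.31% of all genes) and with the block (4.32%). Separate groups were found in 2 genes, and in from 3 to 16 with 1 library left out, beside 13.4% to 21.4% of all genes, where smaller groups separate more easily. It was 16 of 38 without replicate 1 of VEZF12A (16.3% of all genes) and 3 without replicate 2 of VEZF12A (15.3%). With the replicate block 15 genes had the same sign in all 3 pairs, as did 24.7% of all genes. The labels do not say what the numbers mean, and the libraries were treated as unpaired. The correlations of the deviations of same-numbered libraries were 0.079, 0.14 and 0.36, all positive but not all over 0.1, and not every library correlated best with its own number. The median log2 fold change ranged from −0.11 to −0.050 for the glycolytic enzymes and from −0.19 to −0.067 for the HIF targets and regulators with 1 library left out.

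Signs turned, with 1 library left out, for GAPDH (range −0.012 to 0.059, −0.011 without replicate 2 of VEZF1WT), ENO1 (−0.045 to 0.031, 0.007 without replicate 2 of VEZF12A), HIF1A (−0.13 to 0.030, 0.025 without replicate 1 of VEZF12A), EPAS1 (−0.19 to 0.090, 0.061 without replicate 2 of VEZF12A) and MIF (−0.068 to 0.011, 0.006 without replicate 1 of VEZF1WT). The difference between the forms in log2 balance (VEZF1WT minus VEZF12A) ranged from −0.43 to 0.54 for LDHA over LDHB, −0.13 to 0.36 for ALDOA over ALDOC, −0.16 to 0.33 for PFKFB3 over PFKFB4 and −0.070 to 0.067 for HIF1A over EPAS1. The causes were not tested. The other 17 fold changes given for the 39 genes kept their sign in the alternatives run. Those of genes outside the 39 were not recomputed one by one. CA9 and EGLN3 had only 8 to 50 counts a library.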
